A study of Saccharomyces cerevisiae with 6 samples.

Results

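The 3 wild-type arrays of a 6-array yeast series were described on their own, as a picture of which nuclear genes gave signal in cells given xylose. The cells were the haploid Saccharomyces cerevisiae laboratory strain BY4741, labelled wild-type and sampled after 6 h in 80 g/l xylose. The sample titles call the condition a fermentation on xylose and these samples the control. Total RNA was labelled with the dye Cy3 and hybridised in 1 colour to an Agilent array. The labels mark these arrays as replicates 1, 2 and 3 but do not say that they came from separate cultures, and all of them lay on 1 slide scanned once. The array carried 6256 gene probes, 1 per gene, each printed in 7 spots. Of these, 6233 belonged to nuclear genes and are described here, and 23 belonged to mitochondrial DNA and were left aside.

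A gene's level is the mean log2 processed signal of its spots minus the array's 75th percentile, so 0 is the signal that 75% of the array's probes did not exceed. The 75th percentile was 2770, 2862 and 2493 intensity units on arrays 1, 2 and 3, and 92.2%, 94.6% and 93.0% of probes were well above background. No gene probe had a saturated spot. For each pair of arrays the squared difference of a probe was divided by the variance among its spots, and spot noise alone gives a median ratio of 0.484. Arrays 1 and 3 were within that noise (median ratio 0.435) and were averaged first and counted as 1 sample. Array 2 lay just outside it from either (0.635 and 0.671). Means and SD are thus over 2 samples, and their small number limits the precision. The spread given here may be technical only.

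Wild-type S. cerevisiae uses xylose poorly. In the known route, an aldose reductase turns xylose into xylitol, a xylitol dehydrogenase makes xylulose, and xylulokinase phosphorylates it for entry into the pentose phosphate pathway, which feeds glycolysis. Xylose enters the cell through hexose transporters, and it is known to be sensed differently from glucose, the sugar that represses many genes of respiration and of other carbon sources.

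The signal of a probe also depends on its own sequence and on how well it binds, so the levels below place each probe's signal in a band and do not rank transcripts against each other. Genes at 3 or more, at least 8-fold above the 75th percentile, are called very bright, those from 0 to under 3 bright, those from -3 to under 0 moderate and those under -3 dim. All of these had to be well above background on every array. Of the 6233 nuclear genes, 159 (2.55%) were very bright, 1388 (22.3%) bright, 3312 (53.1%) moderate and 891 (14.3%) dim. A further 155 (2.49%) were above background on only 1 or 2 arrays, and 328 (5.26%) were not well above background on any. The 155 depended on single arrays, being 101 without array 1 and 54 without array 2. The median level was -1.33.

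**Figure D1:**
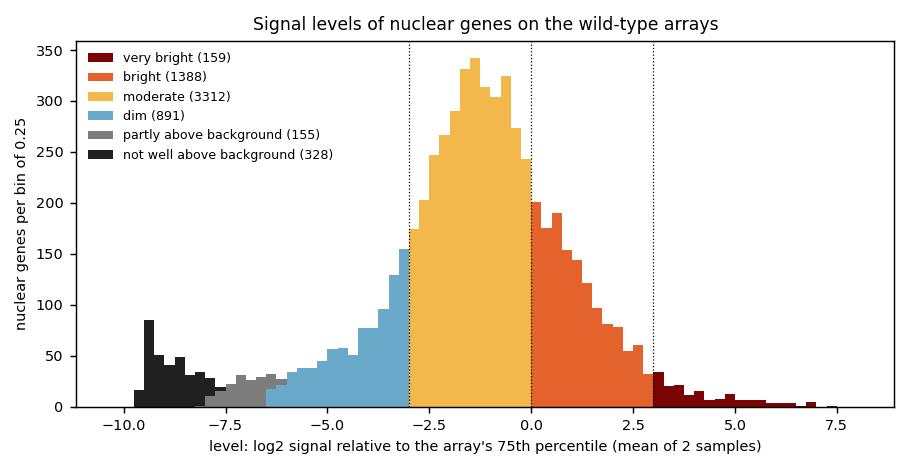
Number of nuclear genes (vertical axis) in bins of 0.25 on the log2 level scale (horizontal axis, relative to the array's 75th percentile), stacked and coloured by band. Dotted lines mark the band limits of -3, 0 and 3, and the 3312 moderate genes form the centre, with 159 very bright genes in the right tail and 328 genes not well above background at the left.

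The bands divided a continuous range, as the plot of signal levels shows. At the upper limit SKP1 stood at 3.01 and RPL9B at 2.99, and at the limit of 0 RTN2 stood at 0.0011 and HSP33 at -0.00013. At the lower limit SFG1 stood at -2.999 and YJU2 at -3.004. Very bright genes carried 43.8%, 43.9% and 44.3% of the summed signal of all nuclear gene probes on arrays 1, 2 and 3, and bright genes 39.3%, 39.1% and 39.0%. Dim genes carried 0.648%, 0.673% and 0.646%. The levels were close between arrays: the median range over the 3 arrays was 0.040 in very bright genes, 0.042 in bright, 0.048 in moderate and 0.090 in dim genes. It was 0.70 in genes not well above background, whose order has no meaning.

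The strain label was set against its marker genes first. BY4741 lacks LEU2, MET17 and part of HIS3, which serve in leucine, methionine and histidine synthesis. LEU2 read -8.23, -8.07 and -8.65 on arrays 1, 2 and 3, MET17 read -8.52, -8.93 and -9.22, and HIS3 read -8.83, -10.00 and -9.25. None of these was well above background on any array. URA3, a uracil synthesis gene that BY4741 also lacks, was very bright instead, at 3.79, 3.74 and 3.75. The labels name no added marker gene, and the source of the URA3 signal was not tested.

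BY4741 is of mating type a. All 7 a-specific genes were well above background on every array, among them the pheromone exporter gene STE6 at 0.21, 0.16 and 0.24 and the alpha-factor receptor gene STE2 at -1.66, -1.59 and -1.68. AGA2, an agglutinin subunit, was dim at -4.38, -4.41 and -4.36. The 9 alpha-specific probes were not at background as a set, since 8 of them were above it on every array. The a-factor receptor gene STE3 read -3.16, -2.96 and -3.08, and the alpha-factor gene MF(ALPHA)1 -3.41, -3.37 and -3.39. The second alpha-factor gene, MF(ALPHA)2, was not well above background on any array.

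The medians were -1.99 for the a-specific and -2.01 for the alpha-specific list, against -1.33 for all nuclear genes. The alpha-specific list holds 4 probes of the mating loci and silent cassettes. The HML and MAT copies of alpha1 share sequence, as do those of alpha2. The 7 a-specific genes were 1 bright, 4 moderate and 2 dim, and the other 5 alpha-specific genes were 1 moderate, 3 dim and 1 not well above background. With another background correction STE3 and AFB1 were moderate (-2.87 and -2.85), as was the a-specific protease gene BAR1 (-2.93). HMLALPHA1 and MATALPHA1, the alpha1 probes, were moderate at means of -2.01 and -1.99 and well above background on every array. The source of the alpha1 signal was not tested. HMLALPHA2 and MATALPHA2 read 2.83 and 2.80 as means over the samples, and HMRA2, whose sequence matches the end of alpha2, read 2.79. HMRA1, the a1 regulator that an a cell also carries at its active locus, was very bright at 3.80, 3.79 and 3.78. Copies of the same sequence cannot be told apart here.

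Genes of meiosis and sporulation, which haploid cells do not carry out, were mostly in the low bands. Of 46 such genes none was bright or very bright, against 24.8% of all nuclear genes. There were 12 moderate and 24 dim genes, 7 were above background on some arrays and SPO75, SPS2 and SAE3 on none. Their median was -4.12. DIT1, a spore wall gene, had the highest signal of the list at -0.43, -0.45 and -0.42. Of the 16 genes of haploid cells and pheromone signalling 2 were bright, 10 moderate and 4 dim. STE18, the gamma subunit of the pheromone-coupled G protein, read 0.64, 0.68 and 0.69, and HO, the mating-type switching endonuclease that is inactive in laboratory strains, was dim at -5.17, -5.19 and -5.23.

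**Figure D2:**
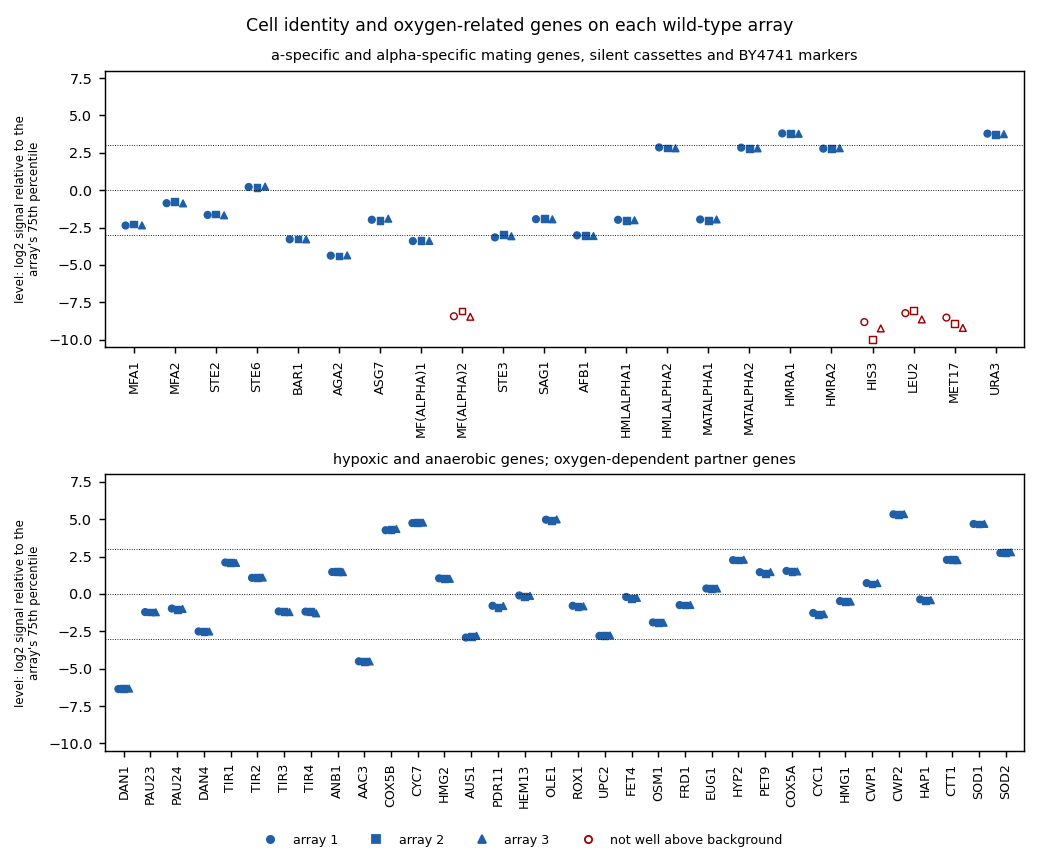
Level on each wild-type array (vertical axis, log2 relative to the 75th percentile of the array; circle, square and triangle for arrays 1, 2 and 3, open red where not well above background) of mating, cassette and marker genes in the upper panel and oxygen-related genes in the lower. HIS3, LEU2, MET17 and MF(ALPHA)2 lie below -8 on all arrays, while URA3, HMRA1, OLE1, CYC7 and COX5B lie above 3.

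Of the 20 highest levels, 9 fell on genes of glycolysis and fermentation. EGO4, a small vacuolar membrane protein of the EGO signalling complex, read 7.37, 7.34 and 7.45 (mean 7.38 ± 0.052, SD, n = 2). ADH1, the main fermentative alcohol dehydrogenase, read 6.92, 6.88 and 6.96, and SED1, a cell wall mannoprotein, 6.77, 6.76 and 6.81. The others of the 20 outside central carbon metabolism included the membrane protein gene HOR7, the plasma membrane heat shock gene HSP30, the thioredoxin gene TRX2 and STF2, whose product protects against drying. They stood at 6.62, 6.27, 6.12 and 5.59 as means over the samples.

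The ribosomal protein gene RPS23B read 6.01 and RPS31, whose product is made as a fusion to ubiquitin, 5.87. RPS23B has a near-identical copy, RPS23A, so its value is uncertain. The remaining names of the 20 outside carbon metabolism were the open reading frames YER138W-A, YBL107W-A and YDR133C, at 6.34, 6.06 and 5.53, whose function is not known. YBL107W-A and YDR133C have no RefSeq entry, and neither has YDR154C, the remaining very bright name of this kind, at 4.03. Overlap of these reading frames with other genes was not tested.

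Of the 159 very bright genes, 92 belonged to at least 1 of 51 gene lists, which together held 1223 genes. The medians of 19 lists were at 0 or above and those of 13 lay below the median of all nuclear genes. The counts of every list are to be read against the shares of all nuclear genes. These were 2.55% very bright, 22.3% bright, 53.1% moderate and 14.3% dim. Glycolysis had the highest median and meiosis the lowest, as the plot of the 51 lists shows.

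**Figure D3:**
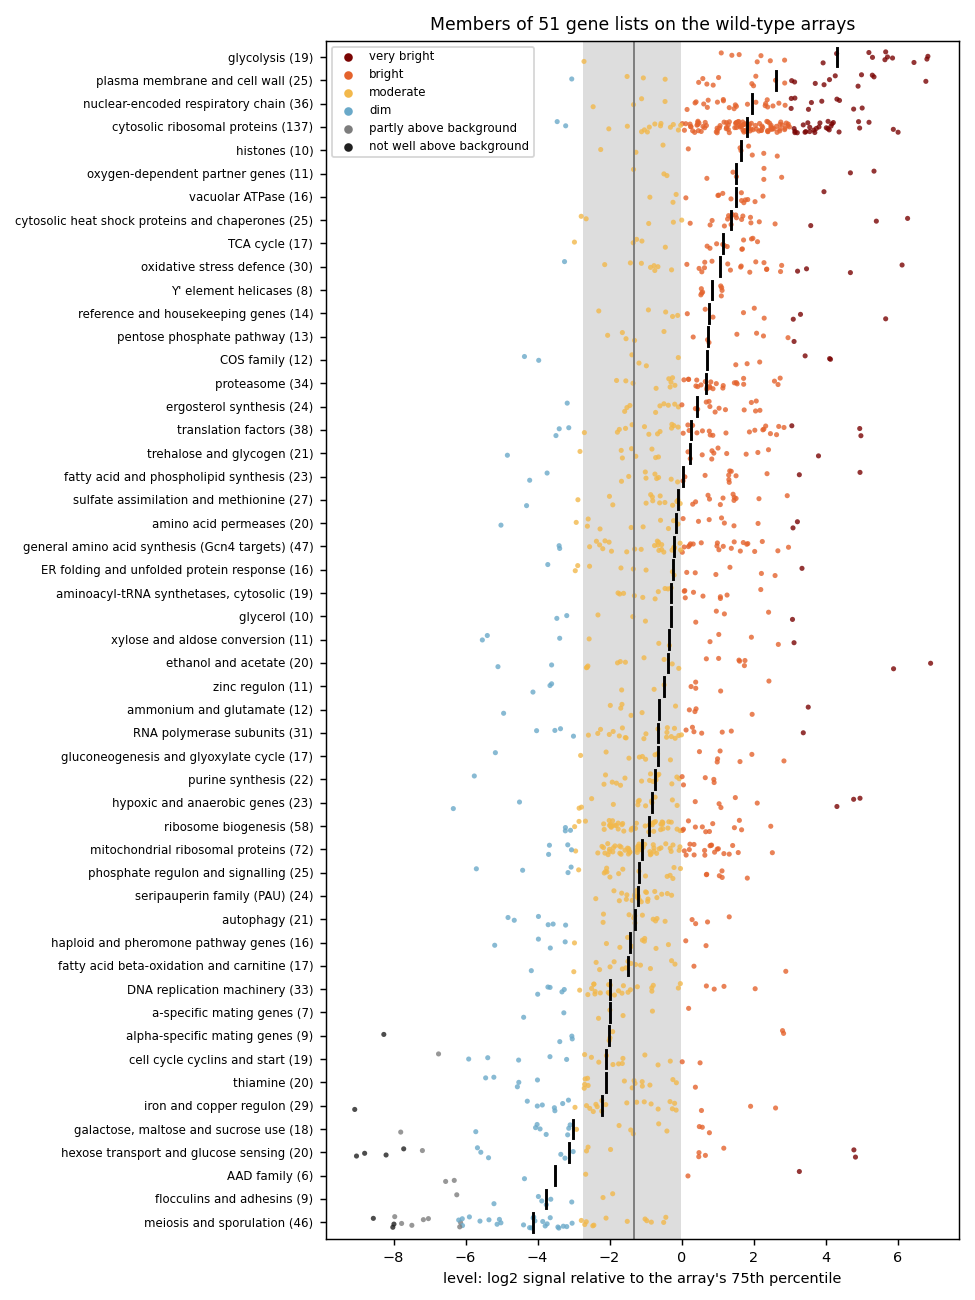
Level of every member (points, coloured by band) of the 51 gene lists, with the number of members in brackets and the list median as a black tick; the horizontal axis is log2 relative to the 75th percentile of the array. The grey line is the median of all nuclear genes, -1.33, and the grey band their quartiles; the list medians run from -4.12 (meiosis and sporulation) to 4.30 (glycolysis).

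Genes of xylose conversion were spread over the bands. Of 11 genes for xylose and related aldoses 1 (9.09%) was very bright, 4 (36.4%) bright, 3 (27.3%) moderate and 3 (27.3%) dim, with a median of -0.34. Over all nuclear genes these shares were 2.55%, 22.3%, 53.1% and 14.3%. The aldose reductase gene GRE3, the main source of xylose reductase activity in this yeast, was moderate at -0.36, -0.34 and -0.33. The xylitol dehydrogenase gene XYL2 was dim at -3.36, -3.39 and -3.42. The sorbitol dehydrogenase genes SOR1 and SOR2, whose products can also act on xylitol, were dim at means of -5.40 and -5.53. Their sequences are nearly the same, so the signal cannot be assigned to either copy.

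XKS1, the xylulokinase gene, was very bright and read 3.12 on each of the 3 arrays (mean 3.12 ± 0.0025, SD, n = 2). Its level was close to the limit of that band, and with another background correction it was bright (2.97). The source of the XKS1 signal was not tested. YJR096W, an aldo-keto reductase gene, was bright at 2.65, 2.72 and 2.64. PHO13, a phosphatase gene known from xylose studies, was moderate at -0.64, -0.61 and -0.68.

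The pentose phosphate pathway, which makes NADPH and takes up xylulose 5-phosphate, was bright as a list. Of 13 genes 1 (7.69%) was very bright, 7 (53.8%) bright, 5 (38.5%) moderate and none lower, and the median was 0.72. Over all nuclear genes these shares were 2.55%, 22.3% and 53.1%. In the oxidative branch the first dehydrogenase gene ZWF1 read 0.75, 0.77 and 0.73, and the 6-phosphogluconate dehydrogenase genes GND1 and GND2 read means of 3.12 and 1.53. In the non-oxidative branch the transketolase gene TKL1 read 2.29, 2.25 and 2.27 and the transaldolase gene TAL1 2.09, 2.07 and 2.08. NQM1, a paralog of TAL1, stood at 2.95, just under the very bright limit, and TKL2, a paralog of TKL1, at -1.31. The ribulose 5-phosphate epimerase gene RPE1 and the ribose 5-phosphate isomerase gene RKI1, which connect the branches, were moderate at -0.49 and -1.55.

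Hexose transporter genes filled every band. Of 20 genes of hexose transport and glucose sensing, 2 (10%) were very bright, 4 (20%) bright, 3 (15%) moderate and 6 (30%) dim. Over all nuclear genes these shares were 2.55%, 22.3%, 53.1% and 14.3%. HXT15 was above background on array 2 alone. HXT11, HXT12, HXT13 and HXT16 (20% of the list, against 5.26% of all nuclear genes) were above it on no array. The very bright ones were the high-affinity transporter genes HXT6, at 4.78, 4.85 and 4.80, and HXT7, at 4.76, 4.80 and 4.76. Their coding sequences are near-identical, so the probes cannot assign the signal to either gene.

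HXT4, HXT3 and HXT5, which encode transporters of high, low and intermediate affinity, were bright at means of 1.17, 0.66 and 0.48. HXT2, another high-affinity transporter gene, was moderate at -2.67, -2.61 and -2.67. HXT1, the low-affinity transporter gene that high glucose induces, was dim at -3.26, -3.23 and -3.25. GAL2, the galactose transporter gene, whose product also carries xylose, was dim at -5.77, -5.37 and -5.79. The glucose sensor genes SNF3 and RGT2, for low and high glucose, read 0.47 and -1.98. Cross-hybridisation among these related genes was not tested.

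The genes for other sugars were mostly moderate or dim, with 3 bright, 6 moderate and 8 dim (44.4%, against 14.3% of all nuclear genes) among 18 and a median of -3.01. The galactokinase gene GAL1 read -3.17, -3.16 and -3.17 and the transferase gene GAL7 -4.04, -4.03 and -4.13. GAL10, the epimerase gene, was above background on array 2 alone, on 0.571 of its spots. The invertase gene SUC2, which glucose represses, was bright at 0.52, 0.47 and 0.50, as was the maltose permease gene MAL31 at 0.77, 0.76 and 0.79. With another background correction GAL1 and HXT1 were moderate (-2.97 and -2.95).

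**Figure D4:**
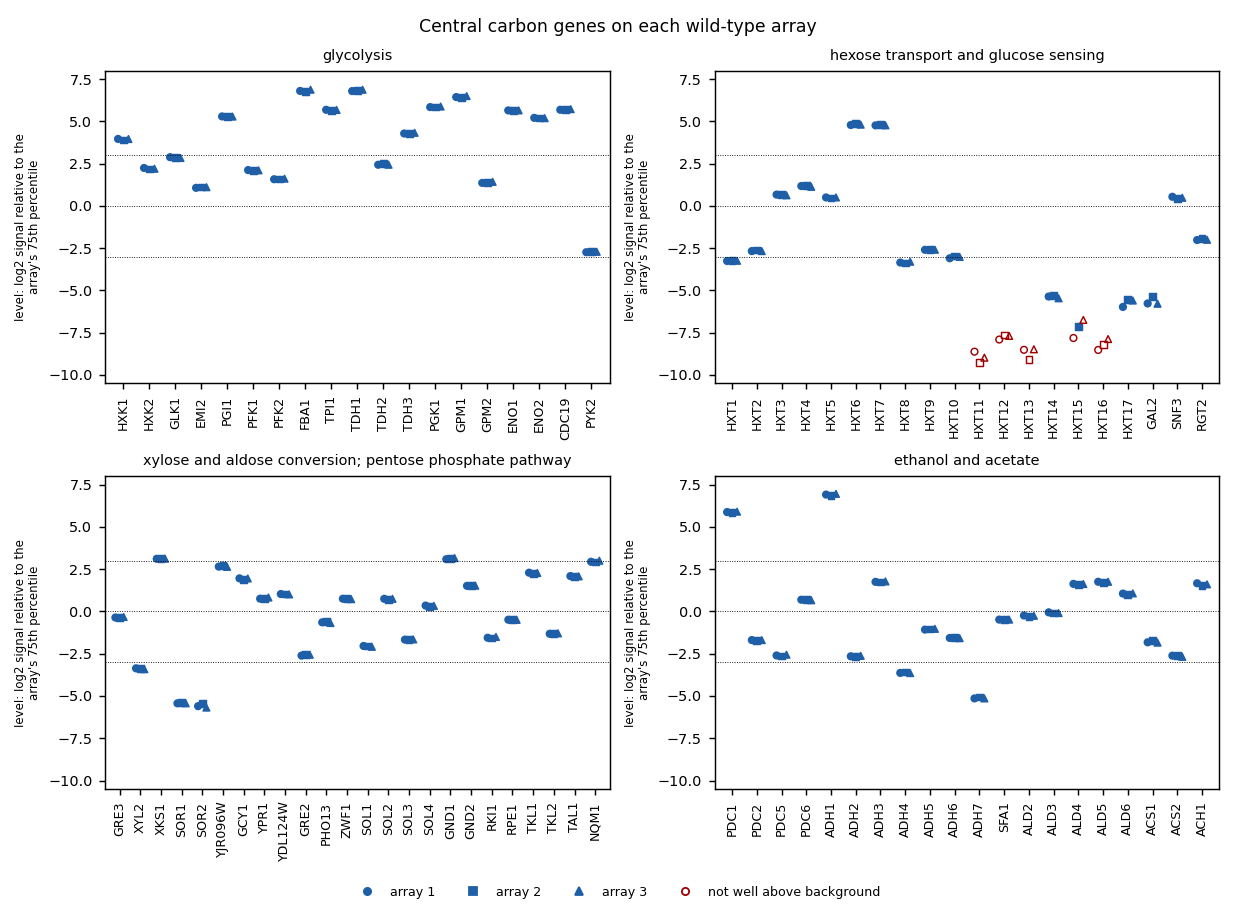
Level on each wild-type array (vertical axis, log2 relative to the 75th percentile of the array; circle, square and triangle for arrays 1, 2 and 3, open red where not well above background) of genes of 4 parts of central carbon metabolism; dotted lines mark the band limits. Glycolysis lies above 0 apart from PYK2, and the hexose transporter genes run from HXT6 and HXT7 near 4.8 to HXT11 near -9.

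Glycolysis was the list with the highest median, 4.30. Of its 19 genes 11 (57.9%) were very bright and 7 (36.8%) bright, against 2.55% and 22.3% of all nuclear genes. Together the 19 genes carried 7.43%, 7.45% and 7.58% of the summed signal on arrays 1, 2 and 3. The aldolase gene FBA1 read 6.80, 6.78 and 6.87, the phosphoglycerate mutase gene GPM1 6.44, 6.43 and 6.49, and the phosphoglycerate kinase gene PGK1 5.84, 5.84 and 5.88. The glyceraldehyde 3-phosphate dehydrogenase genes TDH1, TDH2 and TDH3 stood at 6.83, 2.46 and 4.30, and the enolase genes ENO1 and ENO2 at 5.64 and 5.20. These isoenzyme genes are close in sequence, so their separate values are uncertain.

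The pyruvate kinase gene CDC19 was very bright at 5.69, 5.72 and 5.72. Its paralog PYK2, which is repressed by glucose, was the only glycolysis gene under 0, at -2.74, -2.70 and -2.72. The hexokinase gene HXK1, another glucose-repressed gene, named after its value was seen, was very bright at 3.92.

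Of 20 genes of ethanol and acetate metabolism 2 (10%) were very bright, 6 (30%) bright, 10 (50%) moderate and 2 (10%) dim. Over all nuclear genes these shares were 2.55%, 22.3%, 53.1% and 14.3%. The pyruvate decarboxylase gene PDC1 read 5.88, 5.87 and 5.90, its paralogs PDC5 and PDC6 means of -2.60 and 0.68. ADH2, the alcohol dehydrogenase that consumes ethanol and is repressed by glucose, was moderate at -2.65, -2.65 and -2.63. The cytosolic acetaldehyde dehydrogenase gene ALD6 was bright at 1.06, 0.99 and 1.07. In glycerol metabolism 1 of 10 genes (10%) was very bright and 4 (40%) bright. The glycerol phosphatase gene GPP1 read 3.10, 3.06 and 3.09, and the glycerol uptake gene STL1 was dim at -3.54, -3.42 and -3.48.

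Genes that glucose represses were found in several bands. Of 17 genes of gluconeogenesis and the glyoxylate cycle 7 (41.2%) were bright, 9 (52.9%) moderate and 1 (5.88%) dim, with a median of -0.67. Over all nuclear genes these shares were 22.3%, 53.1% and 14.3%. The gluconeogenic phosphatase gene FBP1 was bright at 0.98, 0.98 and 1.01, and the phosphoenolpyruvate carboxykinase gene PCK1 moderate at -0.75, -0.73 and -0.76. The isocitrate lyase gene ICL1 and the malate synthase gene MLS1 were moderate, ICL1 at -0.96, -1.04 and -0.98 and MLS1 at a mean of -2.10. CIT2, the peroxisomal citrate synthase gene and a known target of mitochondrial retrograde signalling, was bright at 2.83, 2.83 and 2.86.

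Trehalose and glycogen genes had a median of 0.24. Of 21 genes 1 (4.76%) was very bright, 11 (52.4%) bright, 8 (38.1%) moderate and 1 (4.76%) dim. The glycogen phosphorylase gene GPH1 read 3.80, 3.78 and 3.82, and the minor phosphoglucomutase gene PGM1 was dim at -4.80, -4.82 and -4.91. Genes for beta-oxidation of fatty acids, a peroxisomal pathway, were listed together with carnitine genes. This joint list had 2 (11.8%) bright, 14 (82.4%) moderate and 1 (5.88%) dim gene among 17. The carnitine acetyltransferase gene YAT1 was its highest at 2.91, 2.88 and 2.88.

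Nuclear genes of respiration were bright as a list. Of the 36 genes of the respiratory chain and ATP synthase 10 (27.8%) were very bright, 22 (61.1%) bright, 4 (11.1%) moderate and none lower. Over all nuclear genes these shares were 2.55%, 22.3% and 53.1%. The median of the list was 1.94. COX7, a subunit of cytochrome c oxidase, read 4.97, 5.03 and 5.01, the ATP synthase subunit gene ATP3 1.86, 1.80 and 1.85, and the external NADH dehydrogenase gene NDE2 -2.49, -2.45 and -2.44. Of 17 tricarboxylic acid cycle genes 12 (70.6%) were bright and 5 (29.4%) moderate, with a median of 1.14. The succinate dehydrogenase subunit genes SDH4 and SDH2 stood at 2.10 and 1.14, and the minor citrate synthase gene CIT3 at -2.98.

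Several yeast genes exist as pairs, one used with oxygen and one without, and probes for both members were measured. The cytochrome c genes were very bright for the hypoxic form CYC7, at 4.74, 4.78 and 4.78, and moderate for the aerobic form CYC1, at -1.27, -1.37 and -1.35. The subunit 5 genes of cytochrome c oxidase were very bright for the hypoxic COX5B, at 4.27, 4.31 and 4.35, and bright for the aerobic COX5A, at 1.54, 1.51 and 1.51. The members of a pair have different probes, so these bands do not say which transcript was the more abundant.

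The other pairs showed no common pattern of bands. For the translation factor eIF5A, the hypoxic ANB1 read 1.47, 1.51 and 1.46 and the aerobic HYP2 2.27, 2.28 and 2.29. For the ADP/ATP carrier of mitochondria, the anaerobic AAC3 was dim at -4.51, -4.50 and -4.52 and the aerobic PET9 bright at 1.46, 1.38 and 1.47. For HMG-CoA reductase, an early enzyme of sterol synthesis, HMG2 read 1.05, 1.04 and 1.01 and HMG1 -0.48, -0.49 and -0.51.

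Of 23 hypoxic and anaerobic genes 3 (13.0%) were very bright, 5 (21.7%) bright, 13 (56.5%) moderate and 2 (8.70%) dim, with a median of -0.83. The list of 11 partner genes used with oxygen held 2 (18.2%) very bright, 6 (54.5%) bright and 3 (27.3%) moderate genes, with a median of 1.52. Over all nuclear genes 2.55% were very bright, 22.3% bright, 53.1% moderate and 14.3% dim. The fatty acid desaturase gene OLE1 was very bright at 4.97, 4.92 and 4.99, and the anaerobic cell wall gene DAN1 dim at -6.36, -6.34 and -6.33. ROX1, the repressor of hypoxic genes, read -0.79, -0.84 and -0.82. The 24 seripauperin (PAU) genes, cell wall genes that are strongly induced without oxygen, were all moderate, between -2.39 (PAU17) and -0.28 (PAU12). They are so alike in sequence that their separate values are uncertain.

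Cytosolic ribosomal protein genes made up the largest list. Of 137 genes 28 (20.4%) were very bright, 94 (68.6%) bright, 13 (9.49%) moderate and 2 (1.46%) dim. The median was 1.83, and together the 137 genes carried 9.91%, 9.92% and 9.93% of the summed signal. The 2 dim ones, named after their values were seen, were RPL7B at -3.46 and RPL18B at -3.22. Many are pairs of near-identical copies, so the values within a pair are uncertain.

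The mitochondrial ribosome had 19 (26.4%) bright, 49 (68.1%) moderate and 4 (5.56%) dim genes among 72, with a median of -1.10. Over all nuclear genes 22.3% were bright and 14.3% dim. Ribosome biogenesis factors were mostly moderate, 43 of 58 (74.1%, against 53.1% of all nuclear genes), with 12 bright and 3 dim and a median of -0.91. The nucleolar assembly genes RRP14 and NOP1 stood at 2.47 and -0.91. Of 31 RNA polymerase subunit genes 1 (3.23%) was very bright, 6 (19.4%) bright, 20 (64.5%) moderate and 4 (12.9%) dim. Apart from the moderate band these were near the shares of all nuclear genes, 2.55%, 22.3% and 14.3%. The very bright one, RPO26, encodes a subunit that all 3 nuclear polymerases share and read 3.37, 3.37 and 3.39.

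Of 38 translation factor genes 3 (7.89%) were very bright and 19 (50%) bright. The elongation factor 1-alpha gene TEF1 read 4.99, 4.98 and 4.95, and its copy TEF2 encodes the same protein, so the signal cannot be assigned. Of 19 cytosolic aminoacyl-tRNA synthetase genes 9 (47.4%) were bright and 10 (52.6%, against 53.1% of all nuclear genes) moderate.

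Genes of chromosome duplication and of the cell cycle were described by 3 lists. Of 10 histone genes 7 (70%) were bright and 3 (30%) moderate, with a median of 1.63. The histone H4 gene HHF1 read 2.66, 2.67 and 2.62. Of 33 DNA replication genes 4 were bright, 24 (72.7%, against 53.1% of all nuclear genes) moderate and 5 dim, with a median of -1.99. The ribonucleotide reductase gene RNR2 was their highest at 2.09, 2.00 and 2.07, and the helicase subunit gene MCM5 read -1.99, -2.00 and -1.96. Of 19 cyclin and start genes 2 were bright, 11 (57.9%) moderate, near the share of all nuclear genes, and 5 dim, with a median of -2.09. The inhibitor gene SIC1 read 0.56, 0.46 and 0.56, and the S-phase cyclin gene CLB6 was not above background on every array. Cells at different stages of the cycle are mixed in such a sample, and fewer cells of a stage and less RNA per cell cannot be told apart.

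Genes of the proteasome and heat shock proteins were mostly bright. The proteasome had 25 (73.5%) bright and 9 (26.5%) moderate genes among 34 and a median of 0.67, with the core subunit gene PRE9 at 2.75, 2.73 and 2.72. Of 25 heat shock and chaperone genes outside the endoplasmic reticulum 3 (12%) were very bright and 17 (68%) bright, with a median of 1.37. Over all nuclear genes 2.55% were very bright, 22.3% bright and 53.1% moderate. HSP30 read 6.26, 6.27 and 6.29, the mitochondrial disaggregase gene HSP78 1.33, 1.41 and 1.34, and BTN2 -2.82, -2.79 and -2.77. HSP26 and HSP12, small heat shock genes named after their values were seen, were the other very bright ones, at 5.40 and 3.58.

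In the endoplasmic reticulum 1 of 16 folding genes (6.25%) was very bright and 6 (37.5%) bright. The disulfide isomerase gene PDI1 read 3.38, 3.32 and 3.34. Of 30 genes against oxidative stress 4 (13.3%) were very bright and 17 (56.7%) bright, with a median of 1.06. TRX2 read 6.11, 6.12 and 6.13 and the nuclear peroxidase gene DOT5 -3.28, -3.23 and -3.28. Autophagy genes had a median of -1.30, near the -1.33 of all nuclear genes. Of 21 genes 4 (19.0%) were bright, 11 (52.4%) moderate and 6 (28.6%) dim. Over all nuclear genes these shares were 22.3%, 53.1% and 14.3%, so the bright and moderate shares were near those of all genes. ATG8, which coats the forming autophagosome, was the highest of the list at 1.32 on every array. The vacuolar proton pump had 1 very bright, 12 bright and 3 moderate genes among 16. Its stalk subunit gene VMA10 read 3.96, 3.95 and 3.94.

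Cell wall and plasma membrane genes had the second highest median of the lists, 2.60. Of 25 genes 11 were very bright and 10 bright, and together they carried 4.13%, 4.14% and 4.16% of the summed signal. The mannoprotein gene CWP2 read 5.33, 5.34 and 5.34 and the wall protein gene CIS3 2.60, 2.59 and 2.63. PMA2, a minor plasma membrane proton pump gene, was dim at -3.06, -3.06 and -3.03, and moderate with another background correction (-2.80). The 9 flocculins and adhesins held 2 moderate and 6 dim genes, with a median of -3.76, and the lectin gene FLO1 read -3.81, -3.74 and -3.76. FLO9 was above background on arrays 2 and 3 only.

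Of the genes for membrane lipids, 24 ergosterol genes held 14 (58.3%) bright, 9 (37.5%) moderate and 1 (4.17%) dim, with a median of 0.41. The demethylase gene ERG11 read 2.19, 2.18 and 2.14 and the mevalonate kinase gene ERG12 -3.25, -3.11 and -3.24. Fatty acid and phospholipid genes held 2 very bright, 10 bright, 9 moderate and 2 dim among 23. INO1, the inositol synthesis gene that inositol in the medium represses, was dim at -4.24, -4.20 and -4.25.

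Genes of the phosphate regulon, which the transcription factor Pho4 switches on when phosphate is scarce, were listed together with phosphate signalling genes. This joint list was spread over the bands much as all nuclear genes were. Of 25 genes 6 (24%) were bright, 15 (60%) moderate and 4 (16%) dim, against 22.3%, 53.1% and 14.3% of all nuclear genes, and the median was -1.19. The phosphatase gene PHM8 and the high-affinity phosphate transporter gene PHO84 were bright, at 1.82 ± 0.015 and 1.12 ± 0.032 (SD, n = 2). The acid phosphatase gene PHO5 was moderate at -1.13, -1.21 and -1.20. GIT1, a glycerophosphodiester transporter gene, was dim at -5.87, -5.45 and -6.03. The regulators read -3.07 for PHO4, -2.86 for the cyclin gene PHO80 and 0.69 for the kinase gene PHO85. PHO4 lay at the edge of its band and was moderate (-2.82) with another background correction.

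Amino acid synthesis genes under Gcn4 held 21 bright, 24 moderate and 2 dim among 47, with a median of -0.20, and GCN4 itself had the highest signal at 2.94, 2.97 and 2.97. Sulfate assimilation and methionine genes held 12 bright, 14 moderate and 1 dim among 27. The kinase gene MET14 read 2.92, 2.93 and 2.93 and the sulfate permease gene SUL1 -4.39, -4.24 and -4.36. Of 12 genes of ammonium and glutamate metabolism 1 was very bright and 4 bright, the very bright one being the glutamine synthetase gene GLN1 at 3.58, 3.49 and 3.49. Of 20 amino acid permease genes 2 (10%) were very bright and 7 (35%) bright, against 2.55% and 22.3% of all nuclear genes. AGP1, a permease of broad range, read 3.22, 3.21 and 3.20 and the arginine permease gene CAN1 -0.20, -0.26 and -0.20.

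Metal and vitamin genes were read against the 53.1% of all nuclear genes that were moderate. Of 29 iron and copper genes 3 were bright, 18 (62.1%) moderate and 7 dim, with a median of -2.22, and the reductase gene FRE5 was not well above background on any array. The copper chaperone gene ATX1 was their highest at 2.59, 2.62 and 2.59, and the siderophore transporter gene SIT1 read -2.21, -2.21 and -2.25. Of 11 zinc regulon genes 5 (45.5%) were bright, 3 (27.3%) moderate and 3 (27.3%) dim. The zinc transporter gene ZRT1 read -0.52, -0.45 and -0.53. Thiamine genes held 1 bright, 14 (70.0%) moderate and 5 dim among 20, with a median of -2.09. THI4, a thiazole synthesis gene, read -2.57, -2.59 and -2.63. Purine synthesis genes held 5 (22.7%) bright, 16 (72.7%) moderate and 1 dim among 22, against 22.3% bright over all nuclear genes. ADE3, an enzyme of folate metabolism, read 0.90, 0.92 and 0.86 and the IMP dehydrogenase gene IMD2 -6.04, -5.63 and -5.74.

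Genes often used to normalise other measurements lay in 3 bands. Of 14, 3 were very bright, 6 bright and 5 moderate, with a median of 0.76. The actin gene ACT1 read 3.13, 3.08 and 3.09, the tubulin gene TUB3 0.66, 0.67 and 0.62 and the polymerase III factor gene TFC1 -2.31, -2.28 and -2.34.

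Place on the chromosome was read from the systematic names, which number genes outward from the centromere. The outermost 20 numbered genes of each of 32 arms comprised 661 genes, with a median of -1.88, against -1.29 in the other 5572. Not well above background were 8.32% of the outermost and 4.90% of the other genes, dim were 21.3% and 13.5%, and bright or very bright were 21.8% and 25.2%. With the outermost 10 genes per arm 12.3% were not well above background, against 4.87% of the others, and with the outermost 40 these were 6.97% and 4.80%.

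The low signal was concentrated at the very ends. In steps of 5 genes from the end, the median was -2.64, -2.33, -1.79 and -1.20, the last of these above the median of all nuclear genes. The share not well above background was 12.7%, 11.9%, 5.49% and 3.07% in the same steps, and from there to the 60th gene it lay between 0.69% and 7.74%, in no order.

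**Figure D5:**
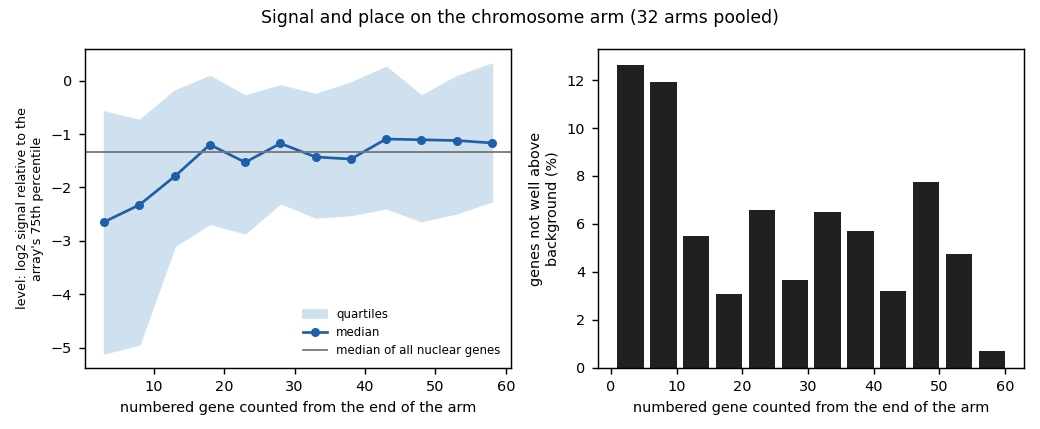
Left, median level (points) and quartiles (shading) of nuclear genes, in log2 relative to the 75th percentile of the array, by the place of the numbered gene counted from the end of its chromosome arm in steps of 5, with 32 arms pooled; right, the percent of those genes not well above background. The median is -2.64 in the outermost 5 genes, and the share below background is 12.7% there.

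The outermost 20 genes of the arms held 16 very bright genes (2.42%), near the share of the other nuclear genes (2.57%). Among them, named after their values were seen, were the membrane protein genes COS2, COS3 and COS4 at 4.11, 4.13 and 3.43, the cell wall glucanase gene BGL2 at 4.99, HXK1 at 3.92 and the aryl-alcohol dehydrogenase gene AAD10 at 3.27. Also among the 16 were the reading frames YLL067C, YEL077C and YBL113C, each the last numbered gene of its arm. They stood at 4.05, 3.54 and 3.17. The COS family as a whole held 3 very bright, 3 bright, 4 moderate and 2 dim genes among 12. All 8 genes named YRF1, helicase genes of the subtelomeric Y' elements, were bright, from 0.53 (YRF1-6) to 1.12 (YRF1-5). Other reading frames of these elements were not listed. Of the 6 AAD genes 1 was very bright, 1 bright, 1 moderate and 1 dim, and AAD15 and AAD3 were above background on some arrays only. Copies within each of these families are alike, so the values of single members are uncertain.

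The genes not well above background were largely names without a RefSeq entry. Of 496 nuclear systematic names with no entry in the RefSeq annotation of assembly R64, 217 (43.8%) were not well above background, and their median was -7.20. Of the 5737 names with an entry 111 (1.93%) were not well above background, and their median was -1.17. Many of the names without an entry are reading frames that were later withdrawn or doubted, and such frames often overlap a gene on either strand. A further 14 of the 496 were bright and 51 moderate.

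Coding length fell across the bands from moderate to very bright. The median coding length of genes with a RefSeq entry was 750 bases in very bright, 1036.5 in bright, 1365 in moderate and 1218 in dim genes, and 1221 over all nuclear genes. It was 387 bases in genes not well above background. Length was not tested as a cause of these differences.

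The 5 genes above background on every array whose range over the arrays was widest were GIT1, YBL096C, YGR069W, YMR193C-A and YOL013W-A, all dim. YOL013W-A read -6.28, -6.03 and -6.79. On every array taken alone, 155 of the 159 very bright genes, 1362 of the 1388 bright, 3275 of the 3312 moderate and 879 of the 891 dim genes lay in the band of their mean.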

How the data were processed

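Total RNA from 3 wild-type BY4741 samples was labelled with Cy3 and hybridised in 1 colour, per the labels' protocols. The scanner output deposited by the authors gives linear intensity per spot, corrected for background inside each array but not scaled across arrays, per the file headers. The submitters' processing notes name Agilent Feature Extraction 10.1.1.1. A value table of the authors has 1 intensity per probe and states no scale, centring or direction. On comparison with the scanner signal it proved linear and uncentred with the same direction (Pearson r across probes of 0.998, 0.996 and 0.998 on the log2 scale). Medians of its columns were 1120, 1140 and 950.5. The sources used here do not give how its spots were combined.

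Left out were control spots and those with a non-uniformity or outlier flag (1.12%, 1.88% and 1.51% of gene spots on arrays 1, 2 and 3). A probe's level is the mean log2 processed signal of its remaining spots, less the array's 75th percentile over gene probes. The scanner software's background flag had to hold on over 0.5 of a probe's spots for the probe to count as well above background. Pearson r between arrays was 0.997 to 0.999 across probes. Because only 1 group is described, no test was made, and lists are given by counts and medians beside those of all nuclear genes. Members not above background entered the medians at their measured value. Of the systematic names 5756 of 6256 matched RefSeq (assembly R64), and the others kept the name in the files. The array's genome build is not named, so no coordinates are given.

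The lists, bands and named genes were chosen with earlier results of these data known. Named were the 20 highest levels, the highest, middle and lowest member of each list of up to 60 genes, members below background where 5 or fewer, a fixed set of carbon, phosphate, oxygen, mating and marker genes, and the 5 genes with the widest range over arrays. HED1 and VMA9, members of 2 lists, were not matched. On simulated data for the wild-type arrays (6256 genes) 99.7% of genes returned to their true band, and the largest error of a level was 0.066. The simulation fixed each gene's background flag in advance and gave all spots of an array the same noise. It therefore checks the calculation of levels and the limits of -3, 0 and 3, and cannot check the calls against background or the noise of weak probes. Python 3.11.15, numpy 2.4.6, pandas 2.3.3, matplotlib 3.10.9 and, for 1 alternative, limma 3.58.1 in R 4.3.3 were used. Alternatives covered the scaling, background correction, flags, band limits, the merging of arrays, the authors' table and each left-out array.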

Additional observations from a re-analysis of the deposited data

How the results depend on the processing

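Of 13 alternatives, the 3 arrays counted separately, median centring, quantile normalization and the authors' table left all 234 named genes in their band. Leaving out array 3 did so too, while leaving out array 1 or array 2 kept 231. With band limits of 2 there were 384 very bright and 1782 dim genes, and with limits of 4 there were 73 and 434, as the limits themselves set. Counting a probe as above background where any spot was gave 174 genes not well above background. Leaving out each array in turn gave 54 to 155 genes above background on some arrays, a number that can only shrink with fewer arrays, and 328 to 429 not well above it. Without array 2 the genes not well above background included 8 of the meiosis list, against 3 with all arrays, and GAL10, HXT15 and CLB6. Normexp background correction, added after the data were seen and run on the median spot signal because no mean spot signal was used here, kept 221 of the 234 named genes in their band and 50 of 51 lists on the same side of the median of all genes. It moved list medians by -0.14 to 0.49 and the median of all genes by 0.056. No paired analysis was possible because 1 group is described and no groups are compared. Shares of promoter motifs were planned and not run, since no promoter sequences were used here. Signal over background limits the order of the 328 genes not well above it.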
